A study of Mus musculus with 32 samples.

Results

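The irradiation effect shared by mice of 3 genotypes was described over all 32 arrays of the series, 16 from irradiated and 16 from sham-treated mice. Whole blood RNA was measured on Agilent 1-colour arrays 24 h after X-rays. Blood was taken by cardiac puncture at euthanasia into a stabilising tube, and globin transcripts were depleted from the RNA before labelling with Cy3. The labels give the sex of the mice as male and the strain as C57BL/6 in every group, and they give no ages. Wild type (WT) mice received 8 Gy (5 arrays) or sham treatment at 0 Gy (6 arrays). ATM-/- (ATM-KO) mice received 4 Gy (6 arrays) or sham treatment (5 arrays). Scid mice received 3 Gy (5 arrays) or sham treatment (5 arrays). ATM is a kinase that is switched on by DNA double-strand breaks, and the Scid mutation lies in Prkdc, the catalytic subunit of the DNA-dependent kinase of end joining. Each genotype had its own dose, so genotype and dose cannot be told apart. Neither Atm nor Prkdc was measurable here: 2 probes of Atm were well above background on 0 and 3 of 32 arrays and the probe of Prkdc on 2. These probes therefore check no label, and levels of lymphocyte genes on single sham arrays are given below.

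Ionising radiation breaks DNA, and cells answer by stabilising the transcription factor p53, whose targets stop the cell cycle or start cell death. Dividing cells and lymphocytes are among the most radiosensitive cells of the body. Blood holds mature red cells without a nucleus, the reticulocytes that precede them and still carry RNA, platelets and white cells. In blood RNA of this kind, fewer cells of a type and less RNA per cell cannot be told apart.

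A log2 level below is the log2 signal of a probe minus that of the 75th percentile of all probes on the same array. An effect is the difference in log2 level between irradiated and sham arrays within a genotype, and the mean effect gives each of the 3 genotypes equal weight. Genes are described as called where the adjusted p was below 0.05 in the limma fit of all 6 groups, adjusted over all 15157 genes tested. The share of probes well above background ran from 20.02 to 58.63% per array, and the number of arrays limits the precision. The median share was 51.23% in WT 8 Gy against 39.8% in WT sham. In ATM-KO it was 35.5% at 4 Gy against 41.57% in sham, and in Scid 38.12% at 3 Gy against 35.57%. Array brightness thus moved with irradiation, up in WT and down in ATM-KO, and the 2 cannot be fully told apart. Array scans fell on 4 days, and these were unequally filled: scan day 1 held 4 irradiated and 11 sham arrays, scan day 2 held 9 and 3, and scan days 3 and 4 the rest. Results with scan day or slide as a block therefore stand beside the main ones. Liver transcripts stood out on 4 arrays, namely ATM-KO 4 Gy replicate 3, replicates 1 and 2 of WT 8 Gy, and replicate 5 of WT 0 Gy. There the summed log2 level of 17 hepatocyte genes was 12.5 to 13.19, against 6.38 to 10.19 on the other 28.

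Blood RNA of irradiated mice lost far more transcripts than it gained. In the mean over genotypes 1734 genes were called (11.4% of those tested), of which 1483 were lower (9.78%) and 251 higher (1.66%). For 115 of the lower and 70 of the higher genes, some group held no array with a signal well above background. The level in such a group is only a bound, so the sizes of these effects are less certain. The lower genes included many of the red cell membrane and some of cell division, B cells and the ribosome. The higher ones included p53 targets and part of the interferon-stimulated genes. Of the called genes, 699 were at least 2-fold lower and 110 at least 2-fold higher. Without ATM-KO 4 Gy replicate 6 the number of higher genes was 387. Scan day as a block left 717 lower and 141 higher calls (5.66% in all), and slide as a block 570 and 68 (4.21%). The balance of the 2 directions depended on the scaling. Quantile normalization gave 980 lower and 345 higher genes, while scaling to the 75th percentile of only those probes that every array detected gave 829 lower and 1522 higher genes and moved the median effect of all genes from -0.06 to 0.23.

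Averaging over genotypes lowers the standard error by construction, whether or not the genotypes agree. The median standard error of the mean effect was 0.26, against 0.45 in WT, 0.45 in ATM-KO and 0.47 in Scid alone. Within single genotypes 1092 genes were called in WT (7.2%), 36 in ATM-KO (0.238%) and 163 in Scid (1.08%). The lower ones made up 6.07% of genes in WT, 0.165% in ATM-KO and 1.02% in Scid, and the higher ones 1.13%, 0.0726% and 0.0594%. Of the genes called in the mean, 623 lower and 148 higher ones were called in no genotype alone. The effects of the lower genes had a median of -1.38 in WT, -0.82 in ATM-KO and -0.82 in Scid, and those of the higher genes 1.16, 0.89 and 0.73. WT had the largest effect for 1017 of the 1483 lower and 132 of the 251 higher genes. The test of the difference between genotypes (limma moderated F) called 0 genes, with 1019 at an unadjusted p under 0.05 and a smallest adjusted p of 0.212. It called 1 gene with slide as a block, 1 without Scid 0 Gy replicate 1, 2 with array weights and 12587 with spike-in scaling. With spike-in scaling the median effect of all genes was 1.25 in WT, -1.65 in ATM-KO and 0.28 in Scid.

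Each pair of genotypes was then used to call genes, and the genes were read in the genotype left out, whose arrays had no part in the call. The 438 genes called lower in ATM-KO and Scid (2.89%) were lower in WT in 97.0% of cases, with a median effect of -2.04, where 51.2% of all genes were lower. The 947 called lower in WT and Scid (6.25%) were lower in ATM-KO in 94.8% of cases, with a median of -0.81, against 62.1% of all genes. The 1207 called lower in WT and ATM-KO (7.96%) were lower in Scid in 91.5% of cases, with a median of -0.74, against 49.3%. In each genotype more sham arrays lay on scan day 1 than on scan day 2. More irradiated arrays lay on scan day 2 in WT and ATM-KO, while Scid had 2 on each of these days. The shares were therefore also taken with scan day as a block in both fits, an alternative chosen after seeing the data. The 63 genes then called lower in ATM-KO and Scid (0.416%) were lower in WT in 98.4% of cases, with a median of -2.91. The 416 called in WT and ATM-KO (2.74%) were lower in Scid in 93.5% of cases, with a median of -1.07. In ATM-KO the share fell to 70.4% of 625 genes (4.12%), with a median of -0.26 where 56.2% of all genes were lower. That ATM-KO fit compares arrays only on scan day 1 (4 sham, 1 irradiated) and scan day 3 (1 and 1).

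Genes called higher were read in the same way. Of 42 genes called higher in ATM-KO and Scid (0.277%), 85.7% were higher in WT, against 48.8% of all genes. The corresponding shares were 78.5% of 135 genes (0.891%) in ATM-KO, against 37.9%, and 77.1% of 240 genes (1.58%) in Scid, against 50.7%. At an unadjusted p under 0.05 in the left-out genotype itself, 18 of the 42, 21 of the 135 and 25 of the 240 were higher. With scan day as a block the shares with the same sign were 100% of 6 genes in WT (0.0396%), 89.0% of 91 in ATM-KO (0.6%) and 67.3% of 113 in Scid (0.746%). For the lower genes the numbers at an unadjusted p under 0.05, without the block, were 377 of 438, 481 of 947 and 495 of 1207. With spike-in scaling the shares with the same sign moved with the shift of all genes, to between 2.44 and 100% over the 6 readings.

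**Figure D1:**
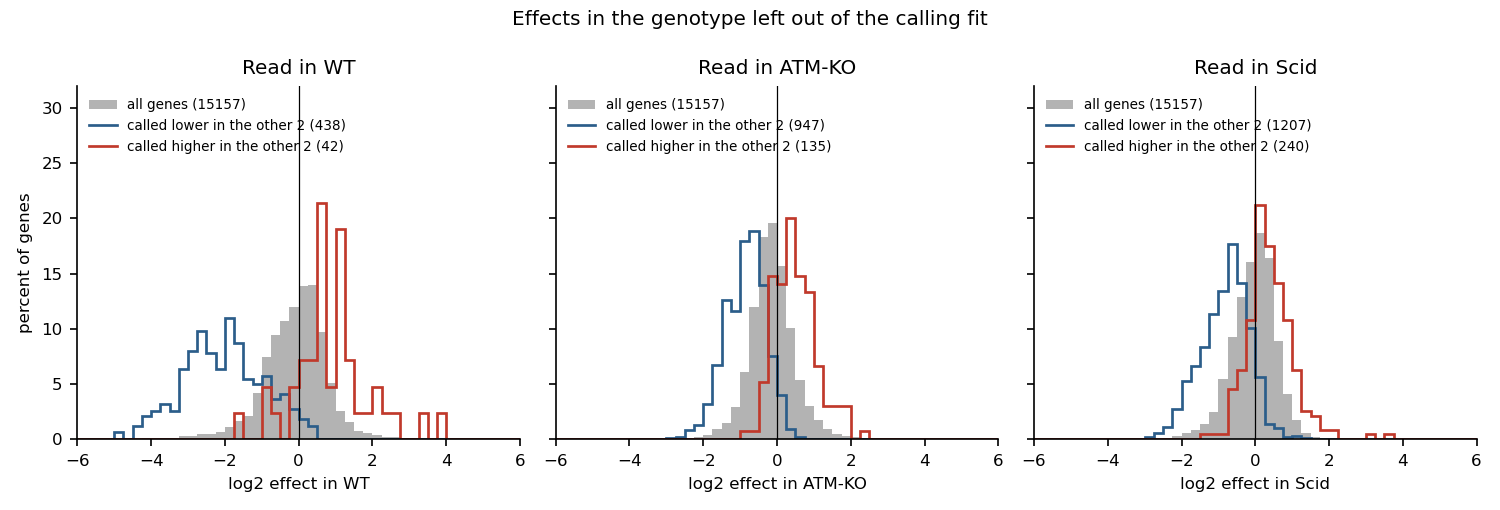
Effects (log2, horizontal axis) in WT, ATM-KO and Scid of genes called in the other 2 genotypes, as the percent of genes per bin; grey shows all 15157 genes, blue the genes called lower and red those called higher. Blue outlines lie mostly below 0 in each panel, with medians of -2.04, -0.81 and -0.74, and red outlines mostly above 0.

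The largest falls were in genes of the red cell membrane and its skeleton. The skeleton is a spectrin mesh, held to the membrane by ankyrin (Ank1), protein 4.2 (Epb42) and the anion exchanger band 3 (Slc4a1), and the Rh proteins span the membrane. Of 56 erythroid genes tested, 41 were called lower (73.2%, against 9.78% of all genes) and 0 higher, with a median mean effect of -1.56 against -0.06 for all genes. The list median was -2.60 in WT, -0.90 in ATM-KO and -1.14 in Scid. Scan day as a block left 35 of the 56 lower, slide as a block 31, the fit without WT 25 and normexp background correction 15 (median -0.78). Some scalings called other members of the list higher: 2 were higher beside 38 lower with quantile normalization, and 6 beside 37 with the 75th percentile of probes detected on all arrays. Of all 15157 genes these scalings called 345 and 1522 higher.

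Epb42 stood out as the gene with the largest mean effect among those whose groups did not overlap in any genotype. Its probe lies at chr2:120844440-120844499 (mm9). Epb42 in WT mice ran from 1.49 to 3.62 with a median of 3.00 on the 6 sham arrays and at -3.53, -2.62, -1.56, -1.13 and -0.94 on the 5 irradiated arrays. Epb42 in ATM-KO mice was at 2.31, 2.34, 2.43, 2.53 and 3.30 on the 5 sham arrays and ran from -0.70 to 1.47 with a median of -0.15 on the 6 irradiated arrays. Epb42 in Scid mice was at 1.97, 2.57, 2.73, 3.34 and 4.07 on the 5 sham arrays and at -0.47, -0.43, 0.18, 0.66 and 1.07 on the 5 irradiated arrays. Every irradiated array lay below every sham array of its genotype. The mean effect was -3.34 ± 0.28 (SE; limma adjusted p = 1.67e-09), a 10.1-fold fall, made of -4.85 ± 0.48 in WT, -2.45 ± 0.48 in ATM-KO and -2.73 ± 0.50 in Scid (SE). A second probe of the gene fell by 2.89 on the log2 scale.

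Ank1, the anchor between the spectrin mesh and band 3, had the largest fall of all called genes with a symbol. The probe is at chr8:24259068-24259127 (mm9). Ank1 in WT mice ran from 0.50 to 2.70 with a median of 1.75 on the 6 sham arrays and at -6.22, -4.92, -4.68, -4.66 and -3.23 on the 5 irradiated arrays. Ank1 in ATM-KO mice was at 0.85, 1.27, 1.63, 2.26 and 2.38 on the 5 sham arrays and ran from -3.74 to 0.25 with a median of -0.63 on the 6 irradiated arrays. Ank1 in Scid mice was at -2.55, 1.69, 1.72, 2.51 and 2.87 on the 5 sham arrays and at -2.78, -1.90, -1.52, -0.20 and 0.11 on the 5 irradiated arrays. In WT no irradiated array had a signal well above background, so that the fall there was at least 36.6-fold. The groups did not overlap in WT and ATM-KO, and in Scid they overlapped through 1 low sham array at -2.55. Over the genotypes the mean effect was -3.96 ± 0.45 (SE; limma adjusted p = 1.39e-07).

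Other membrane genes fell too. Band 3 (Slc4a1) had a mean effect of -2.97 ± 0.36 and the Rh antigen gene Rhd of -2.65 ± 0.28 (SE). The effects of Slc4a1 were -4.88 ± 0.61 in WT, -1.84 ± 0.61 in ATM-KO and -2.20 ± 0.64 in Scid (SE), and those of Rhd were -4.10 ± 0.47 in WT, -1.77 ± 0.47 in ATM-KO and -2.09 ± 0.49 in Scid (SE). Carbonic anhydrase 2 (Car2), which helps red cells carry carbon dioxide, was at -2.86 ± 0.28. The erythroid transcription factor Klf1 fell as well, by 1.11. Other erythroid regulators were not called: Gata1 had a mean effect of 0.35, Tal1 of 0.49, Nfe2 of 0.39 and the erythropoietin receptor Epor of 0.73. Nor was Alas2, the first enzyme of haem synthesis in red cells, called at -0.63 ± 0.23 (adjusted p = 0.0679). Of 8 globin genes tested, in RNA depleted of globin transcripts, 3 were called lower (37.5%, against 9.78% of all genes). These were Hbq1a, Hbb-y and Hbq1b, and the calls of Hbb-y and Hbq1b were lost without any of 18 and 19 single arrays. The list median was -0.32 (WT -1.26, ATM-KO 0.15, Scid -0.11).

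Across all genes, 35 (0.231%) had no overlap between irradiated and sham arrays in any of the 3 genotypes, and all of these were lower. Their mean effects ran from -1.15 to -3.34, with medians of -2.91 in WT, -1.48 in ATM-KO and -1.86 in Scid, and WT had the largest effect for 34 of them. Erythroid list members among them were Epb42, Rhag, Trim10, Bnip3l and Gpx1. The Rh-associated glycoprotein Rhag had a mean effect of -1.90, the mitophagy receptor Bnip3l of -1.91 and glutathione peroxidase Gpx1 of -2.19. Beyond the list they held tropomodulin (Tmod1, -2.51), which caps the actin filaments of the red cell skeleton, cathepsin E (Ctse, -2.78), and Fzr1 (-2.04), an activator of the anaphase-promoting complex. In all 3 genotypes taken separately 14 genes were called lower, Epb42, Fam210b, Nusap1 and Mpp1 among them, and 0 were called higher. Of the 251 genes called higher in the mean, 92 were also called in WT, 8 in ATM-KO and 9 in Scid.

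The promoter of Epb42 is shown because the gene leads this group and erythroid genes share binding of GATA factors as background. The 250 bases before its start in RefSeq (GRCm38.p6), chr2:121036878-121037127 (minus strand), hold 1 match to AGATAA, searched on both strands and shown in capitals as it reads on the gene's strand.
Epb42: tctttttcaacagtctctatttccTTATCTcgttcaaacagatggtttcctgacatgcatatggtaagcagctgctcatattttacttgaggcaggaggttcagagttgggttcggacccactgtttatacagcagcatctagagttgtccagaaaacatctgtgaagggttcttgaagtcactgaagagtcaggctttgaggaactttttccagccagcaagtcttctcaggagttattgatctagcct
A match in this window was found for 4 of the 27 called erythroid genes with a promoter sequence (14.8%), for 7 of 39 tested ones (17.9%) and for 8.28% of the 9667 tested genes with one. Over all 27025 genes with a promoter of this length the share was 11.4%. None of these values says whether a factor binds there.

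**Figure D2:**
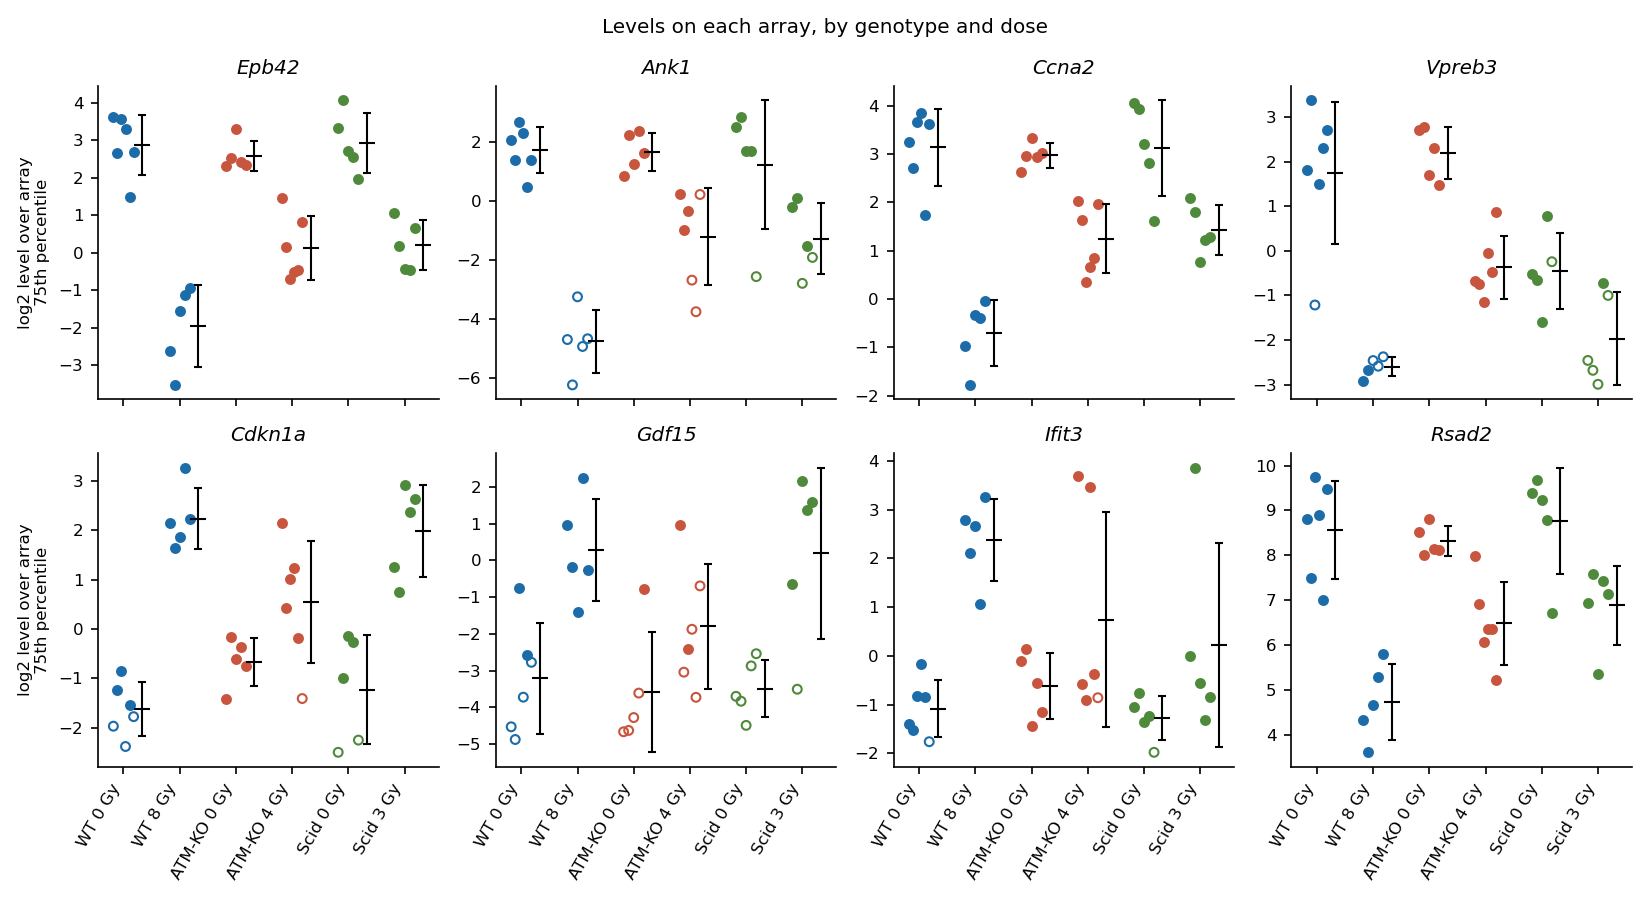
Log2 level over the array's 75th percentile on each array for 8 genes, by group; filled points are well above background, open points are not, and black bars give the mean ± SD. Irradiated arrays lie below sham arrays in all 3 genotypes for Epb42, while Ifit3 is high on 2 irradiated ATM-KO arrays and 1 irradiated Scid array.

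Some genes of cell division fell. Of 27 proliferation genes tested, 10 were called lower (37.0%, against 9.78% of all genes) and 0 higher, with a median of -0.64 (WT -0.56, ATM-KO -0.58, Scid -0.80). Blocking on slide or on scan day gave 10 lower. The number was 7 without WT, 3 with normexp background correction (median -0.21), 6 of the 8 with a probe detected on all arrays, 2 within scan day 1 and 0 within scan day 2. Cyclin A2 (Ccna2) drives S phase and entry into mitosis. Ccna2 in WT mice ran from 1.73 to 3.85 with a median of 3.44 on the 6 sham arrays and at -1.78, -0.97, -0.39, -0.34 and -0.04 on the 5 irradiated arrays. Ccna2 in ATM-KO mice was at 2.63, 2.94, 2.96, 3.02 and 3.33 on the 5 sham arrays and ran from 0.35 to 2.03 with a median of 1.25 on the 6 irradiated arrays. Ccna2 in Scid mice was at 1.62, 2.81, 3.21, 3.94 and 4.06 on the 5 sham arrays and at 0.77, 1.23, 1.28, 1.80 and 2.10 on the 5 irradiated arrays. The groups did not overlap in WT and ATM-KO, and in Scid 1 sham array at 1.62 lay within the irradiated range. In the mean over genotypes it changed by -2.42 ± 0.25 (SE; limma adjusted p = 3.7e-08). The probe is at chr3:36463978-36464037 (mm9). The spindle protein Nusap1 (-2.69 ± 0.26), the mitotic ubiquitin ligase partner Ube2c (-2.12 ± 0.25), cyclin B2 (Ccnb2, -2.03 ± 0.28) and the proliferation marker Mki67 (-1.47 ± 0.27) fell too (SE). Cyclin B1 (Ccnb1, 0.03), the anaphase activator Cdc20 (-0.19) and the midzone protein Prc1 (0.09) were not called. The replication licensing gene Mcm2 was called lower at -1.24, while Mcm3 to Mcm7 had effects of -0.39 to -0.72 and were not called.

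Of 29 DNA repair and checkpoint genes tested, 4 were lower (13.8%, against 9.78% of all genes) and 0 higher, and the list median was -0.20. The single-strand binding protein gene Rpa1 was at -0.73 ± 0.21 and the break-response scaffold Trp53bp1 at -0.87 ± 0.23 (SE); Lig1 and Xpa were the other two. The call of Lig1 was lost without any of 20 single arrays, with an adjusted p of up to 0.0829. With scan day as a block the adjusted p was 0.0271 for Rpa1 and 0.0746 for Trp53bp1. Of 24 histone genes 5 were lower (20.8%, against 9.78% of all genes), led by H2bu2 at -2.03 ± 0.26, and 0 were higher.

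Among rises, p53 targets were well represented. Of 43 tested, 17 were called higher (39.5%, against 1.66% of all genes) and 2 lower (4.65%), and the median was 0.54. The list median was 0.94 in WT, 0.39 in ATM-KO and 0.22 in Scid, where the medians of all genes were -0.02, -0.16 and 0.01. Scan day as a block left 14 higher and slide as a block 10. In the fit without WT, 5 were called higher, where 42 of all 15157 genes were. With the 75th percentile of probes detected on all arrays 23 were higher, where 1522 of all genes were. Normexp background correction left 4 higher and a median of 0.09. Without WT 8 Gy replicate 1 the number higher was again 17 and the median 0.35.

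Cdkn1a encodes p21, the inhibitor of cyclin-dependent kinases through which p53 halts the cell cycle. The probe is at chr17:29237377-29237436 (mm9). Cdkn1a in WT mice ran from -2.38 to -0.85 with a median of -1.66 on the 6 sham arrays and at 1.65, 1.88, 2.16, 2.23 and 3.27 on the 5 irradiated arrays. Cdkn1a in ATM-KO mice was at -1.43, -0.75, -0.61, -0.37 and -0.17 on the 5 sham arrays and ran from -1.41 to 2.16 with a median of 0.72 on the 6 irradiated arrays. Cdkn1a in Scid mice was at -2.50, -2.25, -0.999, -0.26 and -0.13 on the 5 sham arrays and at 0.74, 1.26, 2.38, 2.63 and 2.93 on the 5 irradiated arrays. The groups were apart in WT and Scid and overlapped in ATM-KO. Its mean effect came to 2.76 ± 0.30 (SE; limma adjusted p = 6.73e-08), a 6.78-fold rise, and the effects were 3.86 ± 0.51 in WT, 1.21 ± 0.51 in ATM-KO and 3.22 ± 0.54 in Scid (SE). The unadjusted p of the difference between genotypes was 0.00256, and its adjusted p was 0.657 (limma F). A second Cdkn1a probe gave 1.86 in WT, 1.40 in ATM-KO and 1.11 in Scid.

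Gdf15, a secreted stress hormone of the TGF-beta family, had the largest rise. The probe is at chr8:73153293-73153352 (mm9). Gdf15 in WT mice ran from -4.88 to -0.76 with a median of -3.25 on the 6 sham arrays and at -1.40, -0.25, -0.17, 0.97 and 2.25 on the 5 irradiated arrays. Gdf15 in ATM-KO mice was at -4.67, -4.63, -4.28, -3.61 and -0.77 on the 5 sham arrays and ran from -3.73 to 0.97 with a median of -2.15 on the 6 irradiated arrays. Gdf15 in Scid mice was at -4.49, -3.84, -3.70, -2.87 and -2.54 on the 5 sham arrays and at -3.51, -0.64, 1.38, 1.60 and 2.16 on the 5 irradiated arrays. The groups overlapped in each genotype, by 1 sham array in WT and in ATM-KO more widely. In Scid the probe was well above background on 0 sham and 4 irradiated arrays, so the rise there was at least 3.64-fold. Averaged over genotypes, the effect was 2.99 ± 0.53 (SE; limma adjusted p = 0.000154), and with the Scid bound it was at least 5.21-fold.

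Further p53 targets rose by less. The nuclease gene Aen was at 1.75 ± 0.27, the Akt inhibitor Phlda3 at 1.55 ± 0.33, cyclin G1 (Ccng1) at 1.41 ± 0.34, the pore-forming death protein Bax at 1.08 ± 0.21 and the p53 ubiquitin ligase Mdm2 at 0.78 ± 0.22 (SE). In ATM-KO these 5 genes had effects of 0.29 to 0.87, in WT of 1.07 to 2.45 and in Scid of 0.78 to 2.04. The death activator Bbc3 (Puma) had effects of 1.35 in WT, 0.89 in ATM-KO and 1.13 in Scid. Ptp4a3, a phosphatase counted among p53 targets, fell instead, by 1.82 (SE 0.23), and so did Abhd4, by 0.999. The adaptor Pmaip1 (Noxa, -0.02) and the growth inhibitor Sesn1 (0.01) were not called.

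**Figure D3:**
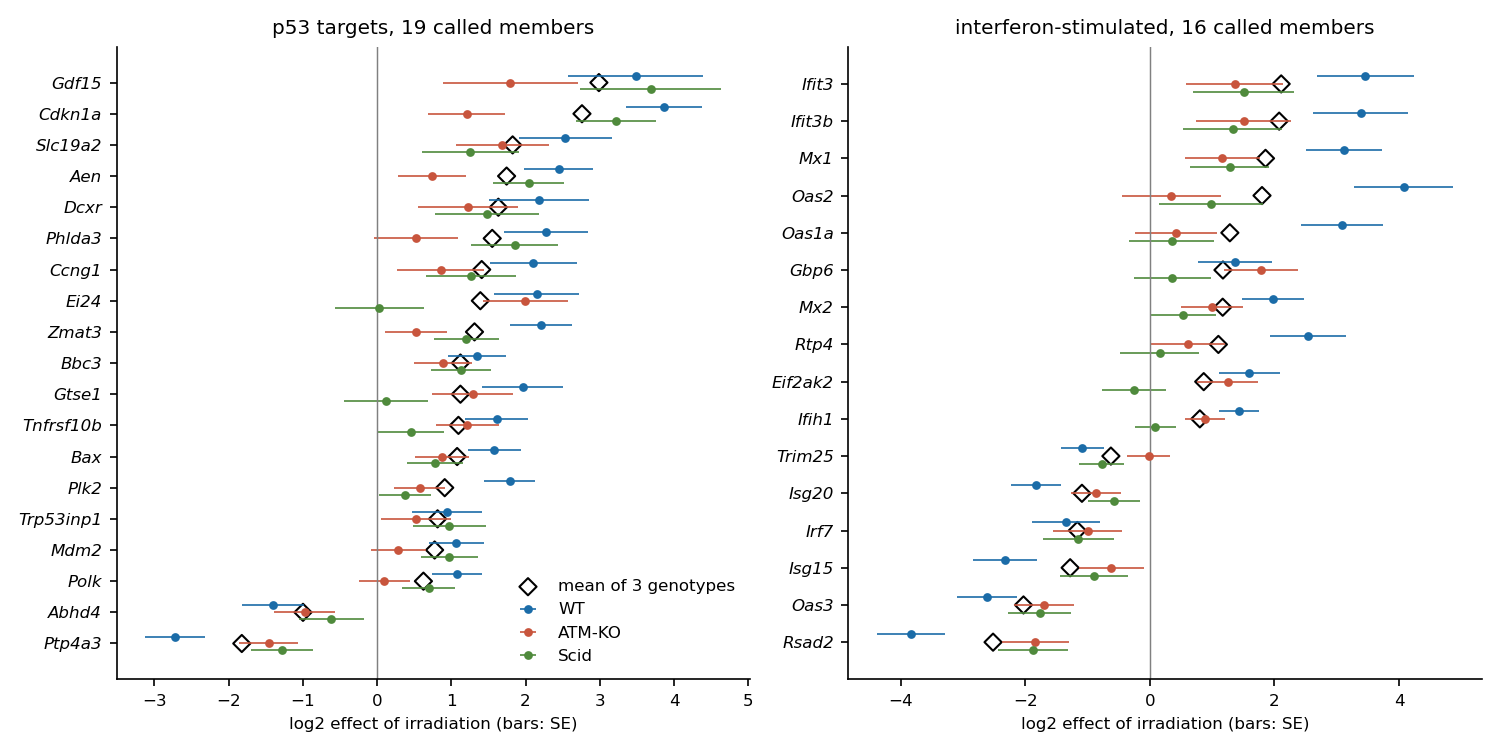
Effects of irradiation (log2, bars ± SE) in WT, ATM-KO and Scid, with the mean as a diamond, for the 19 called p53 targets and the 16 called interferon-stimulated genes. Most p53 targets lie above 0 in all genotypes, while the interferon-stimulated genes fall into 10 higher ones, largest in WT for most, and 6 lower ones.

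Called interferon-stimulated genes lay on both sides. Type I interferon induces them, and many block viral replication. Of 46 tested, 10 were called higher (21.7%, against 1.66% of all genes) and 6 lower (13.04%, against 9.78%), and the median was 0.44 (ATM-KO 0.19, Scid 0.11, and larger in WT). In the fit without WT 0 were called higher and 2 lower. With scan day as a block 11 were higher and 3 lower, where 141 of all 15157 genes were higher and 717 lower. With the 75th percentile of probes detected on all arrays 19 were higher and 5 lower, where 1522 of all genes were higher and 829 lower. Fewer were called with spike-in scaling (4 higher, 4 lower), normexp background correction (2 and 1) and no filter on dim probes (6 and 5). Of the 12 members with a probe detected on all arrays 2 were higher and 5 lower, and their median was -0.16. Without ATM-KO 4 Gy replicate 6 the number higher was 15.

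Ifit3, which binds viral RNA together with its relatives, was among the higher ones. Ifit3 in WT mice ran from -1.76 to -0.16 with a median of -1.12 on the 6 sham arrays and at 1.07, 2.10, 2.67, 2.78 and 3.26 on the 5 irradiated arrays. Ifit3 in ATM-KO mice was at -1.43, -1.15, -0.57, -0.10 and 0.15 on the 5 sham arrays and ran from -0.91 to 3.69 with a median of -0.48 on the 6 irradiated arrays. Ifit3 in Scid mice was at -1.98, -1.37, -1.23, -1.06 and -0.75 on the 5 sham arrays and at -1.31, -0.85, -0.56, -0.01 and 3.86 on the 5 irradiated arrays. All irradiated WT arrays lay above all WT sham arrays. In ATM-KO 2 irradiated arrays were high and the other 4 lay within the sham range. In Scid 1 irradiated array was high, and the other 4 lay within the sham range or less than 1 above it. The fitted mean effect was 2.11 ± 0.45 (SE; limma adjusted p = 0.00152) and without Scid 3 Gy replicate 2, the high Scid array, it was 1.81. In the fit over ATM-KO and Scid alone the effect was 1.43 and was not called.

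Mx1, a GTPase that restricts influenza viruses, showed a similar pattern. Mx1 in WT mice ran from -3.90 to -2.49 with a median of -3.19 on the 6 sham arrays and at -0.97, -0.31, -0.15, 0.60 and 0.72 on the 5 irradiated arrays. Mx1 in ATM-KO mice was at -4.03, -3.42, -3.37, -1.34 and -1.102 on the 5 sham arrays and ran from -3.10 to 0.83 with a median of -2.28 on the 6 irradiated arrays. Mx1 in Scid mice was at -3.94, -3.05, -3.04, -2.76 and -1.66 on the 5 sham arrays and at -2.21, -1.95, -1.56, -1.44 and -0.87 on the 5 irradiated arrays. The groups were apart in WT, 2 irradiated ATM-KO arrays were high, and the Scid groups overlapped. The mean effect was 1.86 ± 0.36 (SE; limma adjusted p = 0.000406). In Scid the probe was well above background on 0 sham and 1 irradiated array, where the rise was at least 1.03-fold, and with that bound the mean rise was at least 2.72-fold. Slfn4, a schlafen gene of myeloid cells, had effects of 4.21 ± 0.73 in WT, 1.76 ± 0.73 in ATM-KO and 1.23 ± 0.76 in Scid (SE). Oas2, a sensor of double-stranded RNA, had 4.07 ± 0.80 in WT, 0.35 ± 0.80 in ATM-KO and 0.98 ± 0.83 in Scid (SE).

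The lower interferon-stimulated genes behaved otherwise. Rsad2 encodes viperin, a radical SAM enzyme. Rsad2 in WT mice ran from 6.99 to 9.73 with a median of 8.86 on the 6 sham arrays and at 3.60, 4.33, 4.66, 5.29 and 5.79 on the 5 irradiated arrays. Rsad2 in ATM-KO mice was at 8.01, 8.11, 8.13, 8.52 and 8.81 on the 5 sham arrays and ran from 5.21 to 7.99 with a median of 6.36 on the 6 irradiated arrays. Rsad2 in Scid mice was at 6.71, 8.79, 9.23, 9.39 and 9.68 on the 5 sham arrays and at 5.36, 6.93, 7.13, 7.41 and 7.58 on the 5 irradiated arrays. The groups were apart in WT and ATM-KO, and in Scid 1 sham array at 6.71 lay within the irradiated range. Over the genotypes the mean effect was -2.52 ± 0.32 (SE; limma adjusted p = 7.8e-07). Oas3 (effects of -2.61 ± 0.48 in WT, -1.70 ± 0.48 in ATM-KO and -1.77 ± 0.50 in Scid (SE)) and the ubiquitin-like Isg15 (-1.28 ± 0.30 in the mean) were lower as well, as were Irf7, Isg20 and Trim25. With scan day as a block Oas3 and Rsad2 were still called, and Isg15 had an adjusted p of 0.0743 (limma). Erythroid genes, with a list median of -1.56, moved in the same direction, and their part in these falls was not tested.

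Promoters of 1 higher and 2 lower interferon-stimulated genes are shown because the groups moved apart although both are known interferon targets. The motif searched on both strands was the core of the interferon-stimulated response element, 2 copies of TTTC with 2 bases between them, with matches in capitals as they read on the gene's strand. The windows are the 250 bases before the start in RefSeq (GRCm38.p6): Ifit3 chr19:34583279-34583528 (plus strand), Rsad2 chr12:26456453-26456702 (minus strand) and Isg15 chr4:156200819-156201068 (minus strand).
Ifit3: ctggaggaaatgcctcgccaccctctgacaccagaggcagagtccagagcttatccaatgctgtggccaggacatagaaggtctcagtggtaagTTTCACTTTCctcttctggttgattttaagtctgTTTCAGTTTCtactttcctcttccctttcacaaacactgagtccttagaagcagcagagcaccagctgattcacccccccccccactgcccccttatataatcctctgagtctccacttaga
Rsad2: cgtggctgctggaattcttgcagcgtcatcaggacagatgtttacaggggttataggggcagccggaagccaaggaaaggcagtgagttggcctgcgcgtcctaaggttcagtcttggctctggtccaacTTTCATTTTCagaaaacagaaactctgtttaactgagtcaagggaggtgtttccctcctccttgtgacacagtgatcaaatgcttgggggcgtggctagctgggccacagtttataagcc
Isg15: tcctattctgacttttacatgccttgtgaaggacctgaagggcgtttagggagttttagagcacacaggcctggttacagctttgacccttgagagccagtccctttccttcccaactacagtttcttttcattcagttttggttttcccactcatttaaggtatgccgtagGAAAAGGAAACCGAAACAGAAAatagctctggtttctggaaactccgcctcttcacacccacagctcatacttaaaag
Ifit3 held 2 matches, Rsad2 1 and Isg15 3 that overlap each other. Of the called interferon-stimulated genes with a promoter sequence, 3 of 5 higher and 3 of 6 lower ones held a match. Among all tested members of the list with a promoter sequence, 14 of 33 did (42.4%). The share was 3.51% of the 9667 tested genes with a promoter sequence and 3.46% of all 27025 genes with one.

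B-cell genes fell in the mean, with an uneven share by genotype. Of 24 tested, 10 were called lower (41.7%, against 9.78% of all genes) and 0 higher, and the median was -1.15 (WT -0.91, ATM-KO -1.52, Scid -0.49). Scan day as a block left 8, slide as a block 5, spike-in scaling 4, the fit without WT 4 and normexp background correction 2. On sham arrays the mean log2 level of the list ran from 1.71 to 2.57 in ATM-KO. In WT it ran from -1.04 (replicate 3) to 2.60, and in Scid from -1.39 to 1.62 (replicate 4), with a median of -0.73. Replicate 3 of WT and replicate 4 of Scid shared slide 4, and replicate 6 of WT, on slide 8, was also low at -0.52. On the Scid sham arrays other than replicate 4 the level ran from -1.39 to -0.51. On the irradiated Scid arrays it ran from -1.07 to -0.43. The WT and Scid effects average over such unlike sham arrays, and the cause was not tested. Vpreb3, a chaperone of the immature B-cell receptor, fell most. Vpreb3 in WT mice ran from -1.22 to 3.38 with a median of 2.06 on the 6 sham arrays and at -2.93, -2.67, -2.59, -2.46 and -2.38 on the 5 irradiated arrays. Vpreb3 in ATM-KO mice was at 1.48, 1.70, 2.32, 2.71 and 2.77 on the 5 sham arrays and ran from -1.15 to 0.88 with a median of -0.58 on the 6 irradiated arrays. Vpreb3 in Scid mice was at -1.60, -0.65, -0.53, -0.25 and 0.77 on the 5 sham arrays and at -2.99, -2.68, -2.46, -1.001 and -0.72 on the 5 irradiated arrays. The groups were apart in WT and ATM-KO and overlapped in Scid. In the mean over genotypes it changed by -2.81 ± 0.33 (SE; limma adjusted p = 2.04e-07) and the effects were -4.35 ± 0.56 in WT, -2.57 ± 0.56 in ATM-KO and -1.52 ± 0.58 in Scid (SE).

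The B-cell transcription factor Ebf1 was at -1.85 ± 0.36, the receptor Cr2 at -1.45 and the regulator Bach2 at -1.20. In Scid the Ebf1 probe was well above background on no irradiated array. Cd24a, which is carried by both B-cell precursors and red cells, was at -2.03 ± 0.28 (SE). Not called were Ms4a1 (-1.15) and Pax5 (-0.15). The call of Cd79a, a chain of the receptor complex (-1.31), was lost without any of 9 single arrays, with an adjusted p of up to 0.0661.

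The shares called lower in other white cell lists are read against 9.78% of all genes. Of 27 T-cell genes 2 were lower (7.41%) and 0 higher, with a median of -0.55. The mean log2 level of this list on sham arrays ran from 0.09 to 2.44 in WT and from -0.16 to 1.94 in Scid. The co-receptor Cd8a had effects of -2.59 ± 0.49 in WT, -1.53 ± 0.49 in ATM-KO and -0.28 ± 0.52 in Scid (SE), and in Scid its probe was well above background on no irradiated array. Of 10 MHC class II genes 2 were lower (20%), the peptide-exchange genes H2-DMb2 (-1.29 ± 0.33) and H2-Oa (-1.35 ± 0.35). Sham arrays had mean log2 levels of the MHC class II list from -1.14 to 3.56 in WT and from -0.83 to 2.33 in Scid. Of 22 NK-cell genes 2 were lower (9.09%), and of 31 monocyte genes 1 was higher (3.23%, against 1.66% of all genes) and 1 lower (3.23%). Of 31 neutrophil genes 2 were higher (6.45%) and 1 lower (3.23%), and of 14 dendritic cell genes 2 were lower (14.3%), the growth factor receptor Flt3 being 1 of them. Among 9 genes of eosinophils, basophils and mast cells 0 were called. The list medians were -0.36 for NK cells, 0.09 for monocytes and -0.21 for neutrophils.

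Platelet genes lay slightly above 0. Of 29 tested, 28 had a mean effect above 0, where 6733 of all 15157 genes did. Of the list 2 were called higher (6.9%, against 1.66% of all genes), and the median was 0.31 (WT 0.31, ATM-KO 0.01, Scid 0.65). Tubb1, the platelet beta-tubulin, is given as an example of a weak call. Tubb1 in WT mice ran from 0.87 to 3.46 with a median of 2.82 on the 6 sham arrays and at 2.93, 2.95, 3.87, 3.89 and 4.36 on the 5 irradiated arrays. Tubb1 in ATM-KO mice was at 1.72, 2.43, 2.63, 2.82 and 3.11 on the 5 sham arrays and ran from 1.44 to 5.27 with a median of 3.43 on the 6 irradiated arrays. Tubb1 in Scid mice was at 1.48, 2.38, 3.85, 3.88 and 3.97 on the 5 sham arrays and at 3.53, 3.69, 3.77, 4.09 and 5.03 on the 5 irradiated arrays. The groups overlapped in all 3 genotypes. Its mean effect came to 0.99 ± 0.32 (SE; limma adjusted p = 0.0391), and the call was lost without any of 14 single arrays, with an adjusted p of up to 0.0712. The integrin Itga2b was likewise lost without any of 21. With scan day or slide as a block 0 of the list were called, while quantile normalization called 12 higher, where 345 of all 15157 genes were.

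**Figure D4:**
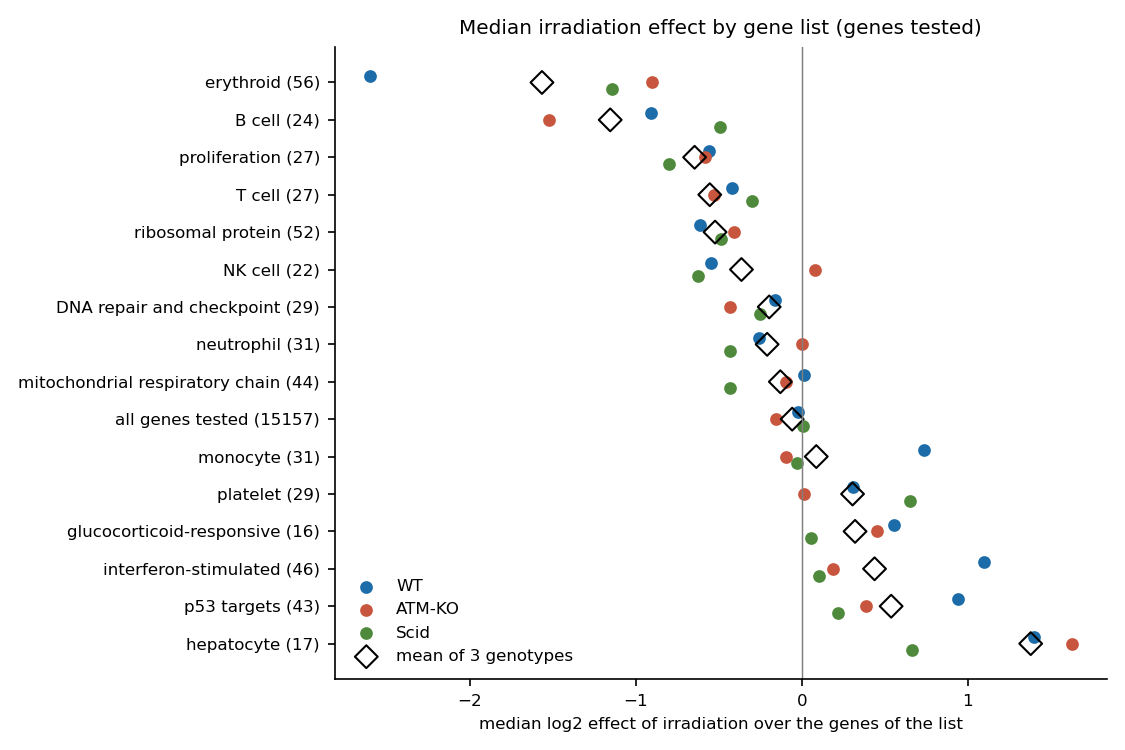
Median irradiation effect (log2, horizontal axis) over the tested genes of 15 lists and over all genes tested, in each genotype (points) and in the mean (diamonds). The erythroid median lies lowest at -1.56 and p53 targets at 0.54; the hepatocyte list, with 0 called members, has a median of 1.38.

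Ribosomal protein genes make up the ribosome with its RNA. Of 52 tested, 22 were called lower (42.3%, against 9.78% of all genes) and 0 higher, with a median of -0.52 (WT -0.61, ATM-KO -0.41, Scid -0.49), but 0 were called with quantile normalization, 0 with spike-in scaling, 2 with the 75th percentile of probes detected on all arrays, 4 with scan day as a block and 1 with slide as a block. Without WT 0 Gy replicate 4 the number lower was 14, and it ran from 14 to 30 with any 1 array left out. Rpl8 was the one with the largest called fall. Rpl8 in WT mice ran from 7.40 to 8.27 with a median of 7.61 on the 6 sham arrays and at 6.67, 6.94, 7.16, 7.26 and 7.40 on the 5 irradiated arrays. Rpl8 in ATM-KO mice was at 7.49, 7.82, 7.91, 7.96 and 8.15 on the 5 sham arrays and ran from 6.05 to 7.68 with a median of 6.95 on the 6 irradiated arrays. Rpl8 in Scid mice was at 7.31, 7.35, 7.39, 7.69 and 7.81 on the 5 sham arrays and at 6.28, 6.32, 6.46, 6.47 and 6.96 on the 5 irradiated arrays. The groups were apart in WT and Scid, in WT by under the rounding of these values, and overlapped in ATM-KO. Averaged over genotypes, the effect was -0.84 ± 0.16 (SE; limma adjusted p = 0.000315) and with quantile normalization it was -0.35 and not called. Another probe gave -0.36. Of 44 respiratory chain genes 10 were called lower (22.7%) and 0 higher, Cox7b (-1.25 ± 0.18) and Atp5b (-1.15 ± 0.17) leading (SE), while the list median was -0.13 and 0.01 in WT. With scan day as a block 5 were called lower and with slide as a block 2. With the 75th percentile of probes detected on all arrays 6 were lower and 2 higher, where 829 of all 15157 genes were lower and 1522 higher. Of 37 proteasome genes 4 were lower (10.8%, near the 9.78% of all genes), led by Psme3 at -1.40 ± 0.22.

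Some genes had nearly equal effects in the 3 genotypes. Rmc1, a subunit of a vesicle-trafficking complex, is an example. Rmc1 in WT mice ran from -0.35 to 1.49 with a median of 0.66 on the 6 sham arrays and at -1.75, -1.66, -1.48, -1.47 and -1.28 on the 5 irradiated arrays. Rmc1 in ATM-KO mice was at -0.12, -0.01, 0.53, 0.73 and 0.88 on the 5 sham arrays and ran from -2.72 to 0.36 with a median of -1.78 on the 6 irradiated arrays. Rmc1 in Scid mice was at 0.13, 0.50, 0.56, 1.16 and 1.78 on the 5 sham arrays and at -1.63, -1.51, -1.46, -1.16 and -0.44 on the 5 irradiated arrays. The groups were apart in WT and Scid, and in ATM-KO 1 irradiated array at 0.36 lay within the sham range. The fitted mean effect was -2.04 ± 0.24 (SE; limma adjusted p = 2.6e-07), made of -2.17 ± 0.41 in WT, -1.89 ± 0.41 in ATM-KO and -2.07 ± 0.43 in Scid (SE). The elongation factor Tcea1 (-2.45 ± 0.50 in WT, -1.89 ± 0.50 in ATM-KO and -2.27 ± 0.53 in Scid (SE)) and the centromere protein Cenpq (-2.46 ± 0.48 in WT, -1.88 ± 0.48 in ATM-KO and -2.09 ± 0.50 in Scid (SE)) were similar. For Cenpq a second probe gave -2.18, -0.31 and -0.94. Among the rises Mfap3l, a membrane glycoprotein, had 1.095 ± 0.49 in WT, 1.06 ± 0.49 in ATM-KO and 1.06 ± 0.51 in Scid (SE). The adjusted p of the difference between genotypes was 0.965 for Rmc1, which does not show that the effects were equal.

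Other rises were uneven across genotypes. Marco, a scavenger receptor of macrophages, had 3.93 ± 1.03 in WT, 1.31 ± 1.03 in ATM-KO and 0.91 ± 1.08 in Scid (SE). Wdfy3, which helps clear protein aggregates, had 1.75 ± 0.71 in WT, 3.09 ± 0.71 in ATM-KO and 0.07 ± 0.74 in Scid (SE), and Hydin, a protein of motile cilia, 0.17 ± 0.59 in WT, 3.12 ± 0.59 in ATM-KO and 0.64 ± 0.62 in Scid (SE). The adjusted p of Hydin was 0.0102 in the main fit and 0.148 with scan day as a block (limma), and of 5 lung and airway genes it was the 1 called. The acute phase gene Saa3 was not called, at 2.23 ± 0.77 (adjusted p = 0.0555). Of 17 hepatocyte genes 0 were called although their median was 1.38; without the 4 liver-bright arrays that median was 0.32, and 1295 genes were called lower and 229 higher. No gene was called in the lists of the circadian clock (12 genes tested), cholesterol synthesis (15), glycolysis (20) and heart and skeletal muscle (7) either.

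The fits within single scan days rest on few arrays. Scan day 1 held 1 irradiated WT, 1 irradiated ATM-KO and 2 irradiated Scid arrays. Scan day 2 held no ATM-KO sham array and 1 Scid sham array, so its effects come from WT and Scid alone. Sizes on the 2 days therefore average different genotypes, and genotype mix and scan day cannot be told apart in them. Within scan day 1 the effects of 1724 of the 1734 called genes had the same sign, and within scan day 2 those of 1699. These smaller fits called 134 genes (115 lower, 19 higher) on scan day 1 and 1 gene on scan day 2. Epb42 was at -3.04 within scan day 1 and -3.74 within scan day 2, and Ccna2 at -2.06 and -2.55. Cdkn1a was at 2.60 and 4.47, and Ifit3 at 3.61 and 1.95. Marco differed most, with 1.26 and 5.15.

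**Figure D5:**
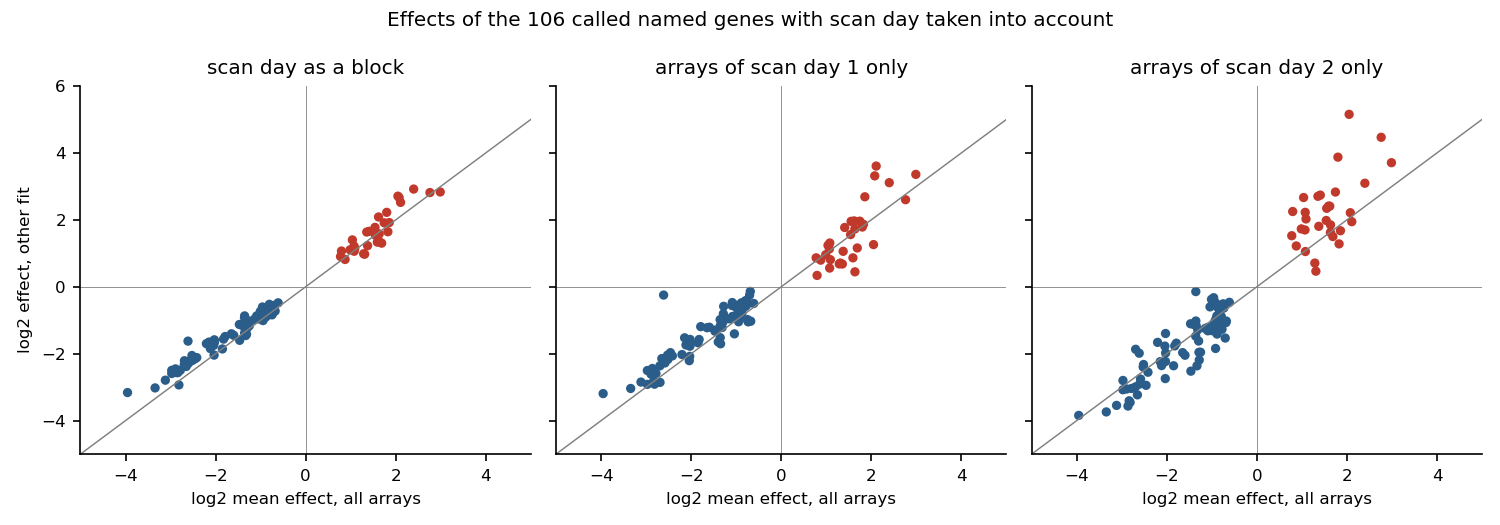
Effects (log2) of the 106 called named genes with scan day as a block, within scan day 1 and within scan day 2 (vertical axes) against the mean effect over all arrays (horizontal axis); red genes were called higher and blue lower. The grey diagonal marks equal effects, and all points lie on the same side of 0 as in the main fit.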

How the data were processed

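Signal intensities were deposited as Agilent Feature Extraction output for each of 32 arrays, and the processed intensity is background-subtracted and detrended within the array per the file headers (version 11.5.1.1 there, 12.0.2 in the submitters' processing notes). The authors also deposited a table of log2 values of the same arrays, used as an alternative; how its probes were chosen is not given in the sources used here. Here control and outlier spots were left out and replicate spots averaged. The log2 processed intensity was set against each array's 75th percentile. Kept probes (18367 of 39429) exceeded background clearly on 4 or more arrays of a group, and the kept probe with the highest mean stood for its gene (15157 genes, 12214 with a RefSeq symbol). A limma fit (3.58.1, R 4.3.3) of 6 group means gave each effect, their equal-weight mean and the F test of their difference, with Benjamini-Hochberg adjustment over all genes, and was tested on simulated data. Scan days and slides were read from the file headers. An "at least" fold sets the brighter group's mean against the lowest signal well above background on each array of the dimmer group, or the dim probe's own signal where that is higher. Blood was taken at euthanasia and the labels mention no pooling, so arrays were treated as separate mice. Alternatives changed the scaling, background correction, filter, blocks, weights and arrays used.

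The members, lists and tests were chosen with earlier results of these data known. Genes named were those with the largest mean effects, those with the largest smallest effect over genotypes, up to 4 called members of each list, and a fixed set of known genes. Klf1, Gata1, Tal1, Nfe2, Epor, Tmod1, Fzr1, Rhag, Bnip3l, Gpx1, Fam210b, Mpp1, Ccnb1, Cdc20, Prc1, the Mcm genes, Bbc3, Pmaip1, Sesn1, Abhd4, Cr2, Bach2, Ms4a1 and Pax5 fall outside that rule or may do so, and were chosen after their values were seen. Some genes are not reported here.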

Additional observations from a re-analysis of the deposited data

Results flagged for a closer look

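Among 90 sets of array values, 5 held 1 array far from the others of its group, which is near the 1 in 20 that chance alone gives. Epb42 was highest on ATM-KO 0 Gy replicate 3, at 3.30, and its mean effect without that array was -3.28. Ank1 was lowest on Scid 0 Gy replicate 5, at -2.55, and its mean effect without it was -4.27. Gdf15 was highest on ATM-KO 0 Gy replicate 5, at -0.77, with a mean effect of 3.22 without it. On Scid 3 Gy replicate 2 both Ifit3 (3.86) and Rpl8 (6.96) were highest, and their mean effects without that array were 1.81 and -0.88. Each of these 5 genes was still called without the array in question.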

How the results depend on the processing

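Genes called numbered 169 with normexp background correction (15 higher, 154 lower), 640 with spike-in scaling (54, 586), 638 with slide as a block (68, 570), 858 with scan day as a block (141, 717) and 3279 with array weights (861, 2418). Without WT they numbered 480 (42, 438), without ATM-KO 1082 (135, 947), within scan day 1 134 (19, 115) and within scan day 2 1 (1, 0); the within-day fits were chosen after seeing the data. Higher genes alone moved to 116 with the array median, 126 with no filter on dim probes, 71 with probes detected on all arrays and 383 with array brightness as a covariate. With the 75th percentile of probes detected on all arrays 1522 were higher and 829 lower, and with quantile normalization 980 were lower. Leaving out 1 array gave 1462 to 2052 called genes, 191 to 387 higher and 1267 to 1737 lower. Genes called for a difference between genotypes numbered 12587 with spike-in scaling, 1 with slide as a block, 2 with array weights and 0 to 1 with 1 array left out. Of genes called in the other 2 genotypes, the share with the same sign under spike-in scaling was 50% (higher, WT), 54.9% (lower, WT), 2.44% (higher, ATM-KO) and 95.3% (higher, Scid). With normexp it was 100% for the higher genes in ATM-KO and in Scid, and 0 genes were called for the reading in WT. With scan day as a block, added after seeing the data, it was 100% (higher, WT), 89.0% (higher, ATM-KO) and 70.4% (lower, ATM-KO). The cause of these moves was not tested, beyond the fewer arrays of the smaller fits. The replicate block gave 1812 genes (265 higher, 1547 lower); same-numbered arrays had correlations of -0.73 to 0.35, so the numbers do not pair the samples. The authors' values gave 179 higher and 1079 lower, and 1280 of the 1282 main calls they hold had the same sign. Over the 122 named genes and these alternatives, 6246 values were computed: 5233 kept the call, 982 lost it, 31 gained it and 0 reversed. Dim probes limit the rest, since a probe below background has only a bound.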
